A study of Mus musculus with 18 samples.

Results

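A set of 9 transcription factor genes that set intestinal and regional identity were followed in mouse small intestinal organoids: Cdx1, Cdx2, Hnf4a, Hnf4g, Gata4, Gata6, Pdx1, Klf4 and Klf5. They were picked by symbol, with earlier results of these data known, and are 9 of the 55487 genes in the deposited count table. All 9 passed the filter on low counts that left 15247 genes for testing. Organoids are cultures grown from intestinal crypts that hold epithelial cells and no other tissue layer. They came from the small intestine of female wild-type (WT) C57BL/6 mice, with no segment stated in the sources used here, and were treated for 4 days after 4 passages. The 4 groups were the HCl vehicle (n = 4), norepinephrine at 1 µM (n = 5), the DMSO vehicle (n = 4) and UK14,304, a synthetic α2-adrenergic agonist, at 1 µM (n = 5). Each library carried a number from m1 to m5, read here as the mouse its culture came from, which the sources used here do not spell out. Mice 1 to 4 had all 4 treatments, and mouse 5 had the agonists alone.

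Caudal-type homeobox factors (CDX) keep the intestinal epithelium from turning toward a stomach-like state and switch on many enterocyte genes. Hepatocyte nuclear factors 4 (HNF4) are nuclear receptors that drive enterocyte maturation and fat handling. GATA4 marks the proximal and middle small intestine and is absent from the distal ileum, while GATA6 is found along the whole length. PDX1 is a homeobox factor of the pancreas and duodenum. KLF4 is a zinc finger factor of goblet and differentiated cells, and KLF5 is its counterpart in dividing crypt cells.

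Levels were compared between genes as RPKM (counts scaled to exon length and to the library total) and within a gene as CPM (counts scaled to the library total). Hnf4a was the most abundant of the 9, at 306.2 ± 7.61 RPKM (SD, n = 18), above 99.5% of the tested genes. Cdx1 at 105.4 ± 8.08 RPKM, Hnf4g at 103.3 ± 7.31, Klf5 at 96.74 ± 4.73 and Cdx2 at 88.04 ± 4.38 formed a second tier. Within that tier the order was not firm: Cdx1 exceeded Hnf4g in only 8 of 18 libraries, Hnf4g exceeded Klf5 in 15 and Klf5 exceeded Cdx2 in 16. Below it, Gata4 stood at 51.06 ± 5.53 RPKM, Gata6 at 21.98 ± 1.33, Klf4 at 14.13 ± 2.49 and Pdx1 at 6.893 ± 5.43, each above the next in all 18 libraries. Hnf4a was also the steadiest member, with a coefficient of variation of 2.49% over the libraries, and Pdx1 the least steady at 78.8%.

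The epithelial character of the cultures showed in their markers. The summed level of 8 epithelial genes lay between 7686.9 and 8755.7 CPM over the 18 libraries, led per length by the keratin Krt19 at 883.3 RPKM, the adhesion molecule Epcam at 655.3 RPKM and Krt8 at 574.5 RPKM. The 7 fibroblast markers summed to at most 3.5645 CPM and the 3 smooth muscle markers to at most 0.48643 CPM, with the collagen-binding proteins Dcn and Lum at 0 counts throughout. Sums of the 5 immune, 3 endothelial, and 4 neuronal and glial markers were at most 5.5818, 0.9913 and 2.3956 CPM. Total counts ran from 21.87 M to 27.85 M per library. A gene of ribosomal RNA took 1.83% to 3.06% of counts in 7 libraries (HCl mouse 4, norepinephrine mice 4 and 5, DMSO mice 1 to 3 and UK14,304 mouse 1) and 0.313% to 0.619% in the other 11. Adding that split to the blocked model changed no call on the 9 genes. In bulk RNA, fewer cells of a type and less RNA per cell cannot be told apart.

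Pdx1 and Cdx2 are neighbours. On GRCm38, Pdx1 lies on the plus strand at chr5:147269959-147275848 and Cdx2 on the minus strand at chr5:147300805-147307270, with 25.0 kb between the gene spans. Hnf4a lies at chr2:163506808-163572910, Hnf4g at chr3:3508030-3658052, Klf4 at chr4:55527143-55532466, Gata4 at chr14:63198922-63271692 and Klf5 at chr14:99298691-99315036. All 9 members are protein-coding, and 8 share no exon base with another annotated gene or a match of at least 50 bases at 95% identity with another transcript.

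Promoter windows from RefSeq (GRCm38.p6, 250 bases before and 50 after the annotated start) were used for 4 of the 9 members. Those of Pdx1 and Klf4, which differed between mice below, are shown with that of Cdx2, which adjoins Pdx1 and did not pass that test. Capitals mark the letters of short binding motifs found on either strand: AGATAA or TGATAA for GATA factors, TTTATG or TTTATT for CDX, CAAAGTCC or CAAAGTTC for HNF4, and CACCC for KLF factors. The windows are chr5:147269847-147270146 (plus strand) for Pdx1, chr5:147307200-147307499 (minus strand) for Cdx2 and chr4:55532426-55532725 (minus strand) for Klf4.
Pdx1: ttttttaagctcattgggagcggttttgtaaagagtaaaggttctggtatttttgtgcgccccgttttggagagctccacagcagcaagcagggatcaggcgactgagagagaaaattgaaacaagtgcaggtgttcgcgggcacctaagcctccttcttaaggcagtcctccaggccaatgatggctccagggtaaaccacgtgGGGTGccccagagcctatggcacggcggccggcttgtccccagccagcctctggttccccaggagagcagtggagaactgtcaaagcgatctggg
Cdx2: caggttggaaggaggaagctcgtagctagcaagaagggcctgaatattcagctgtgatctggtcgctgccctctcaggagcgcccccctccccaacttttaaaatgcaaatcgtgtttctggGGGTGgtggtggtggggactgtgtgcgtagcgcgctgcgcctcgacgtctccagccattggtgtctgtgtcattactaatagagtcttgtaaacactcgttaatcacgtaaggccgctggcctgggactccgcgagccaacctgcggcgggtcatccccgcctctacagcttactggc
Klf4: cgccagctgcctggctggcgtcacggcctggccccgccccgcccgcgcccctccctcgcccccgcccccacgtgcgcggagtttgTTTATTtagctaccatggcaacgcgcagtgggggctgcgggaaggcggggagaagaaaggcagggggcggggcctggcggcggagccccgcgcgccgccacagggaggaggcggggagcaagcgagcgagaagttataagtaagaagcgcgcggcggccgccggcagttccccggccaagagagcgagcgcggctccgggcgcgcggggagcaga
The Pdx1 and Cdx2 windows each held 1 KLF motif, present in 57.5% of the 32851 promoters in the table, and none of the other 3 kinds. The Klf4 window held 1 CDX motif, found in 27.6% of promoters, in a sequence of 74.3% GC against a median of 52.7%. The upstream Hnf4a promoter (chr2:163506607-163506906) held 1 GATA motif, found in 18.6% of promoters, and 3 KLF motifs, and the downstream one (chr2:163546905-163547204) held 5 KLF motifs. The HNF4 letters, present in 2.44% of promoters, were in none of these 5 windows. Motifs did not overlap each other in the windows printed.

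Several of these genes differed between mice, and none passed the test for a treatment. In a test of all mouse terms beside the 4 groups, 4 of the 9 members differed between mice at an adjusted p under 0.05 (edgeR quasi-likelihood test): Pdx1, Klf4, Gata4 and Gata6. Across the genome, 2110 of 15247 genes (13.8%) did. The test sets the differences between 5 mouse numbers against the spread between libraries of the same number, which were treated differently and may share a culture. Over all tested genes the highest mouse mean was a median of 1.16-fold above the lowest, and 1.71-fold at the 90th percentile.

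Pdx1 ranged 49.1-fold over the libraries, from 17 to 896 counts. In mouse 2 it stood at 35.92 CPM with HCl, 32.32 with norepinephrine, 36.32 with DMSO and 31.83 with UK14,304. In mouse 3 it stood at 0.739, 1.222, 1.041 and 1.074 CPM in the same order of treatments. Mouse 1 (10.56, 12.91, 11.99 and 10.97 CPM) and mouse 4 (14.79, 15.58, 14.54 and 13.09 CPM) lay between them, as did mouse 5 with 11.04 CPM under norepinephrine and 11.8 under UK14,304. No library of mouse 2 or of mouse 3 overlapped another mouse. The mean of mouse 2, 34.1 ± 2.35 CPM (SD, n = 4), was 33.5-fold that of mouse 3, 1.019 ± 0.203 CPM (n = 4), with an adjusted p of 1.33e-14. Of all 15247 genes, Pdx1 ranked 2 by the p-value of this test and 18 by the fold between mice. The order of mice 1 to 4 (2, 4, 1, 3 from high to low) was the same in all 4 treatments, which held for 1.1% of genes.

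**Figure D1:**
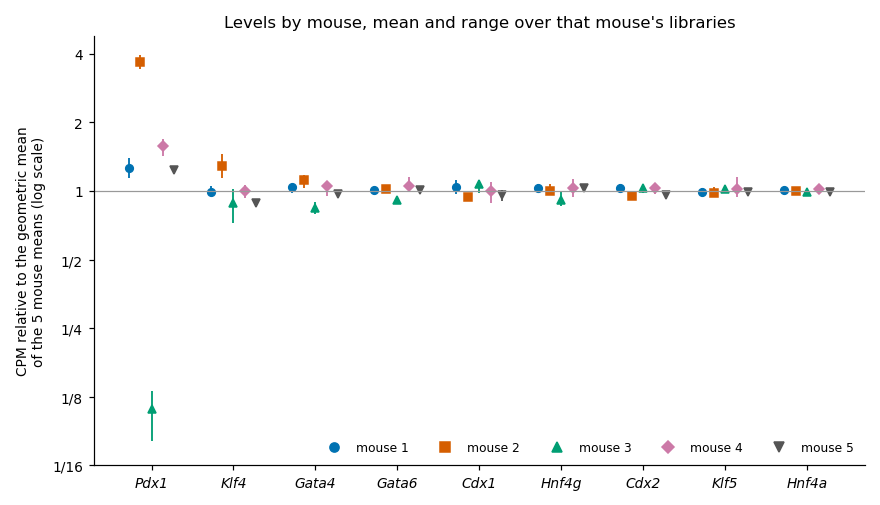
Level of each transcription factor by mouse, as CPM relative to the geometric mean of the 5 mouse means (vertical log scale). Points are means and bars the range over the 4 libraries of a mouse (2 for mouse 5); Pdx1 spreads from 34.1 CPM in mouse 2 to 1.019 in mouse 3, while Hnf4a and Klf5 means differ by at most 1.04-fold.

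The noncoding gene Plut overlaps the span of Pdx1 on the opposite strand and shares no exon base with it. The counts were made without regard to strand, so reads from either strand on an exon were counted to that exon's gene. Plut was examined after the values of Pdx1 were seen. Its means were 7.13 CPM in mouse 2, 3.92 in mouse 4, 3.58 in mouse 5, 2.33 in mouse 1 and 0.176 in mouse 3, with an adjusted p of 2.51e-10 between mice. The neighbouring Urad was at 1.39 to 1.7 CPM in the 5 mice with an adjusted p of 0.78, and the homeobox gene Gsx1 had 0 counts. Cdx2, the third gene of this homeobox cluster, had mouse means from 188.1 ± 5.77 CPM in mouse 2 to 204.5 ± 8.18 in mouse 1 and 204.5 ± 8.84 in mouse 4 (SD, n = 4 each) and did not pass (adjusted p 0.13), although mouse 2 had the lowest of mice 1 to 4 in all 4 treatments, as some mouse did for 11.9% of genes.

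Gata4 was lowest in mouse 3. That mouse had 162.1 CPM with HCl, 176.7 with norepinephrine, 156.3 with DMSO and 173.7 with UK14,304, while the libraries of the other mice ran from 188 to 231.7 CPM and did not overlap these. Some mouse was the lowest of mice 1 to 4 in all 4 treatments for 11.9% of genes. Mouse 2 had the highest mean, 220.1 ± 11.5 CPM, 1.32-fold that of mouse 3 at 167.2 ± 9.61 (SD, n = 4 each, adjusted p 0.000444). Without mouse 3 the difference between mice did not pass, at an adjusted p of 0.664 against a background of 3.56% of genes.

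Gata6, the second GATA factor, lies on chromosome 18, as does Cdx1. It shares 93 exon bases with 1010001N08Rik, a gene on the opposite strand with 9967 counts against its own 63610, so reads on those bases cannot be assigned to one of the pair. Gata6 was also lowest in mouse 3, at 128.5 CPM with HCl, 131.2 with norepinephrine, 129.1 with DMSO and 131.6 with UK14,304. All other libraries lay between 140.9 and 164.6 CPM. Mouse 3 was thus lowest in all 4 treatments, as some mouse among mice 1 to 4 was for 11.9% of genes. The highest mean was that of mouse 4, 150.7 ± 9.64 CPM, 1.16-fold that of mouse 3, 130.1 ± 1.52 (SD, n = 4 each, adjusted p 0.00599). It lost the call without mouse 3 (adjusted p 0.926), without mouse 2 (0.0837, background 5.29%) and when each library's trend on GC content was removed (0.559). Gata5, the remaining GATA gene with a clear signal, had mouse means from 58.64 to 66.52 CPM and did not pass (adjusted p 0.11), and Gata1, Gata2 and Gata3 were too low to test.

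Klf4 was highest in mouse 2, which had 58.91 CPM with HCl, 47.93 with norepinephrine, 60.97 with DMSO and 49.84 with UK14,304. Every other library had between 30.61 and 44.88 CPM. The mean of mouse 2, 54.41 ± 6.48 CPM, was 1.47-fold that of mouse 3, 37.11 ± 5.63 (SD, n = 4 each, adjusted p 0.000257), and the difference did not pass without mouse 2 (adjusted p 0.559). The same mouse was highest in all 4 treatments for Klf4, as for 10.5% of genes.

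**Figure D2:**
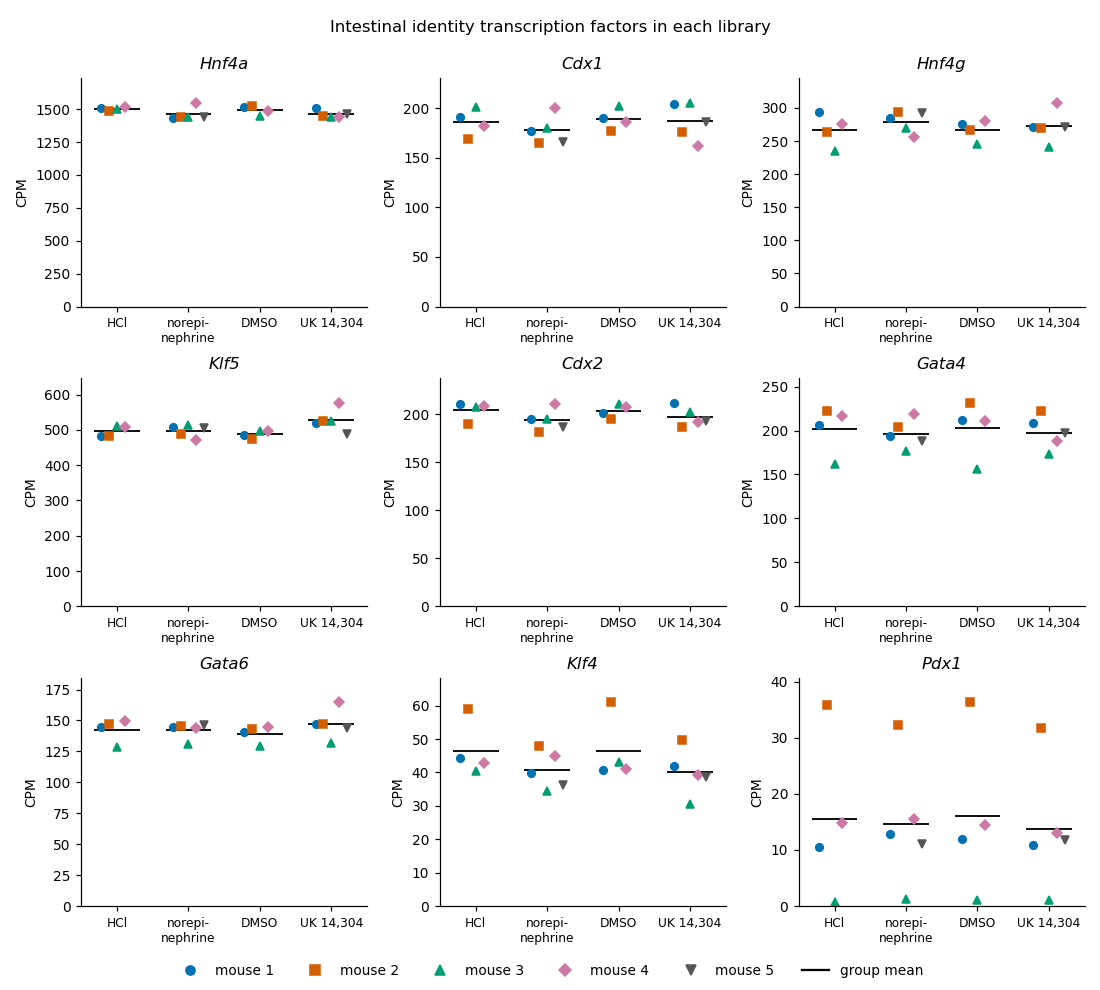
CPM of the 9 transcription factors in each of the 18 libraries, with a panel per gene, groups on the horizontal axis, mice by colour and shape, and group means as black lines on axes that start at 0. Mouse 2 stands above the rest in the Pdx1 and Klf4 panels and mouse 3 below the rest in those of Gata4, Gata6 and Pdx1, in vehicle and agonist groups alike.

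The other 5 members did not pass the test between mice. Hnf4a had mouse means within 1.03-fold of each other (1454 to 1499 CPM, adjusted p 0.923) and Klf5 within 1.04-fold (492.5 to 513.4 CPM, adjusted p 0.708). Cdx1 ran from 171.8 CPM in mouse 2 to 197.1 in mouse 3 (adjusted p 0.161), and Hnf4g from 247.8 CPM in mouse 3 to 281.8 in mouse 5 (adjusted p 0.123). These verdicts moved with the libraries used. Without mouse 4, 7 of 9 members passed beside 29.2% of all genes, with Cdx1 (adjusted p 1.59e-05), Hnf4g (0.000166) and Cdx2 (0.00341) added. The same 3 passed with the GC trend removed (2.12e-06, 7.13e-07 and 0.00255). Over the 7 alternative runs of this test other than leaving out a mouse, that run among them, the genes passing ranged from 180 to 3858. Cdx1 transcripts are 62.1% GC and those of Hnf4g 42.4%, the highest and lowest of the 9. Over the 10 agonist libraries alone only Pdx1 passed, beside 1.24% of genes, a split chosen after seeing the data.

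In the list of 6 genes of proximal small intestine, 5 passed the test between mice, beside 13.8% of all genes. Slc40a1, the iron exporter of the basolateral membrane, had a mean of 241.4 CPM in mouse 2 and 17.41 in mouse 3 (13.9-fold, adjusted p 1.27e-16). Cybrd1, the ferric reductase of the duodenal brush border, had 553.1 and 95.48 CPM (adjusted p 3.29e-07). Lactase (Lct) ran the other way, at 200.5 CPM in mouse 2 and 412.2 in mouse 3 (adjusted p 1.13e-10). The incretin Gip was lowest in mouse 3 at 78.41 CPM and highest in mouse 4 at 120.3 (adjusted p 2.99e-06). Fabp1, a fatty acid binding protein at 6442 RPKM, spanned 1.31-fold (adjusted p 6.65e-05). It had 3960 CPM in mouse 1, 3397 in mouse 2 and 3026 in mouse 3. Slc40a1 and Cybrd1 had the mouse order of Pdx1, and the others that passed did not.

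Of 6 genes of distal small intestine, 3 passed beside 13.8% of all genes, and these 3 were at low levels. Slc10a2, the ileal bile acid importer, had means of 7.118 CPM in mouse 3 and 2.105 in mouse 1 (adjusted p 0.000122). The ileal bile acid binding protein Fabp6 had 6.556 and 1.026 CPM in the same mice (adjusted p 0.0366), and the hormone Fgf15 2.973 and 1.265 CPM (adjusted p 0.00462). The more abundant bile acid exporter subunits Slc51a, at 14.55 RPKM, and Slc51b, at 13.19 RPKM, did not pass (adjusted p 0.347 and 0.201). Mouse 3 was highest for these 3 distal genes, and mouse 2 was second highest for Slc10a2 and Fabp6.

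Of the colon genes, the water channel Aqp8 was lowest in mouse 3, at 3.719 CPM against 8.558 over all libraries (adjusted p 3.18e-08). Car1 and Hoxb13 had 0 counts. The stomach list was near 0 throughout: its 8 genes summed to at most 4.8204 CPM, Sox2 had 0 counts, and the 3 most abundant per length were Tff1 at 0.5379, Muc6 at 0.2288 and Tff2 at 0.188 RPKM. Tff1 (1.251 CPM in mouse 2, 0.02119 in mouse 3) and Cldn18 (0.7081 and 0.2035 CPM) nevertheless passed between mice, with adjusted p of 2.43e-07 and 0.000615. They were 2 of the 3 stomach genes tested, beside 13.8% of all genes. Their counts per library ran only from 0 to 39 and from 2 to 23.

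Among 18 other factors of the intestinal network, 7 passed between mice, beside 13.8% of all genes. Onecut2, a homeobox factor, had 320.3 CPM in mouse 2 and 119.5 in mouse 3 (adjusted p 2.07e-06), the vitamin D receptor Vdr 498.9 and 389.3 CPM (adjusted p 4.02e-05), and the repressor Prdm1 5.63 and 2.659 CPM (adjusted p 5.49e-05). Foxa1 and Ehf, named after their values were seen, ran the other way. Foxa1, a forkhead factor, had 40.71 CPM in mouse 2 and 50.42 in mouse 3 (adjusted p 0.000278), and Ehf, an ETS factor, 281.2 and 345.7 CPM (adjusted p 0.0126). The most abundant per length, Isx at 201.5 RPKM and Elf3 at 197.1, did not pass (adjusted p 0.333 and 0.0729), while Creb3l3 at 115.5 RPKM did (0.00125). Of 13 tested relatives in the CDX, GATA and KLF families only Klf6 passed (101.3 to 120.5 CPM, adjusted p 0.0476). Klf3 at 26.94 RPKM was the most abundant of those relatives and had mouse means within 1.06-fold. Cdx4 and Klf14 had 0 counts.

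Enterocyte genes known as targets of CDX2 or HNF4 differed between mice in 14 of 17 tested, beside 13.8% of all genes. Alpi, an intestinal alkaline phosphatase, had 1909 CPM in mouse 2 and 406.3 in mouse 3 (adjusted p 2.51e-10). The guanylin gene Guca2a had 57.65 and 108.2 CPM, the opposite order (adjusted p 7.2e-07). The apolipoproteins Apoa1, at 1921 RPKM, and Apoa4, at 981.7 RPKM, were lowest in mouse 3, at 2067 and 1214 CPM (adjusted p 0.00166 and 8.05e-05). The 3 that did not pass were Cdh17, Vil1 and Apob, with mouse means within 1.06-fold, 1.08-fold and 1.3-fold. An 18th gene, sucrase-isomaltase, is named Sis in the annotation, so its symbol Si in the list matched no tested gene. Under Sis it had mouse means from 4410 to 6020 CPM (adjusted p 0.0835).

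Over all 9271 genes that averaged at least 10 CPM, the 3 whose log2 CPM tracked Pdx1 most closely over the 18 libraries were Reg1 (Pearson's r = 0.996), Akp3 (0.985) and Otop3 (0.982). Reg1, a secreted C-type lectin, had mouse means of 1902 CPM in mouse 2, 1189 in mouse 4 and 160.8 in mouse 3. Akp3, the alkaline phosphatase gene of duodenum, had 589.4, 165 and 3.816 CPM in those mice, a 154-fold range. Otop3, a proton channel, had 57.81, 29.95 and 9.055 CPM. Libraries of 1 mouse may share a culture and those of mouse 3 stand apart, so r was also taken over the 14 libraries of the other mice, where it was 0.977, 0.963 and 0.982. After each gene's mouse mean was subtracted, r was 0.808, 0.279 and 0.399.

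**Figure D3:**
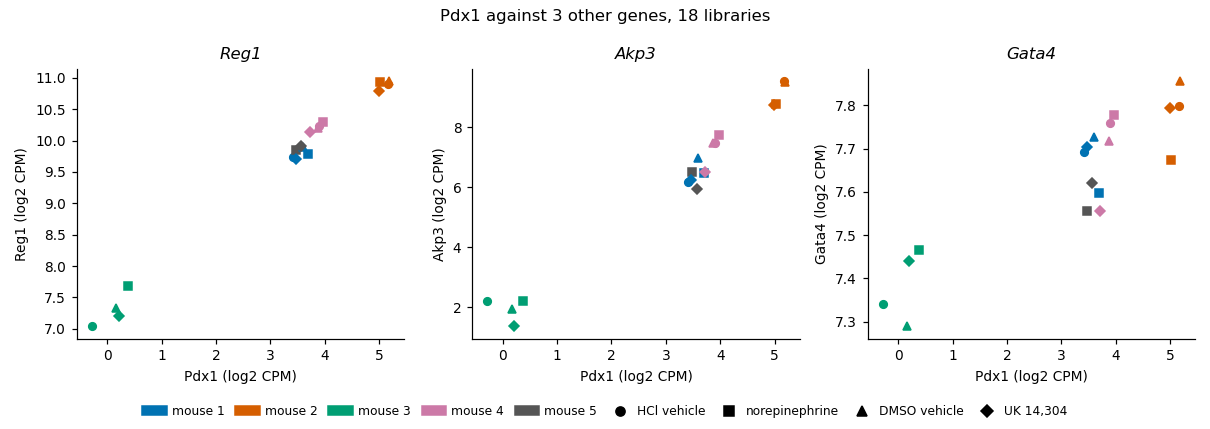
Log2 CPM of Reg1, Akp3 and Gata4 (vertical axes) against that of Pdx1 (horizontal axes) in 18 libraries, with mice by colour and groups by marker shape. Libraries fall together by mouse, with mouse 3 at the low end and mouse 2 at the high end of Pdx1, and r with Pdx1 is 0.996 for Reg1, 0.985 for Akp3 and 0.902 for Gata4.

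For Gata4 the nearest genes were Acaa2 (r = 0.97), Dlst (0.968) and Mmp14 (0.96), of which the mitochondrial thiolase Acaa2 ran from 340.3 CPM in mouse 2 to 242.8 in mouse 3. For Klf4 they were Rffl (0.953), the growth factor Areg (0.944) and the carboxylesterase Ces2b (0.927), with Areg at 25.21 CPM in mouse 2 and 15.9 in mouse 3. Gata6 was nearest to Acsl1 (0.911), Map7 (0.904) and Retreg1 (0.896). After the mouse means were subtracted, r was 0.835, 0.968 and 0.784 for the genes named with Gata4. It was 0.877, 0.876 and 0.805 for those with Klf4, and 0.72, 0.781 and 0.755 for those with Gata6. Without mouse 3 the values were 0.953, 0.871 and 0.884 for Gata4, 0.927, 0.917 and 0.927 for Klf4, and 0.814, 0.856 and 0.701 for Gata6. For the other members the nearest genes were Prpf19, Kcnn4 and Ppp1r1b for Cdx1 (0.954 to 0.947), Cst3, Fbln1 and Bmp7 for Cdx2 (0.906 to 0.9), Dbnl, Plcb3 and Tkt for Hnf4a (0.941 to 0.935), Sar1b, Tfg and Sec23a for Hnf4g (0.93 to 0.919), and Dbf4, Nr5a2 and Nfatc3 for Klf5 (0.884 to 0.882). The genes named for these 5 members and for Gata6 spanned at most 1.34-fold between mouse means. The genes listed for Hnf4g include Sar1b and Sec23a, parts of the vesicle coat that leaves the endoplasmic reticulum.

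Among the members themselves, Cdx1 and Cdx2 varied together over the 18 libraries (r = 0.835, and 0.841 after the mouse means were subtracted). Cdx1 and Hnf4g varied in opposite directions (r = -0.722, and -0.855 within mice), with -0.684 after the GC trend was removed. Gata4 and Pdx1 had an r of 0.902, which was 0.636 without mouse 3 and 0.436 within mice. Gata6 and Hnf4g had 0.792, which was 0.177 with the GC trend removed. These correlations describe 18 libraries from 5 mice that share treatments and library preparation.

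None of the 9 genes passed an adjusted p of 0.05 with either agonist. With norepinephrine against HCl vehicle, 0 of 9 members passed, beside 0% of all genes (0 of 15247), and none had an unadjusted p under 0.05, beside 6.18% of genes. With UK14,304 against DMSO vehicle, 0 of 9 passed beside 0.0394% of genes, and 1 member, Klf5, had an unadjusted p under 0.05 beside 11.2%. With the mouse as a block, the members passing were again 0 for norepinephrine (background 0.105%) and 0 for UK14,304 (background 1.22%). The median log2 fold change of the 9 was -0.04 for norepinephrine and -0.03 for UK14,304. CPM ranges of agonist and vehicle overlapped for all 9 members in both comparisons, where 1.42% of genes with norepinephrine and 3.51% with UK14,304 had ranges that did not overlap.

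Klf5, the crypt factor, came nearest to a change with UK14,304. The DMSO libraries of mice 1 to 4 had 486.5, 475.1, 496.1 and 495.5 CPM, and the UK14,304 libraries of mice 1 to 5 had 519.9, 523.8, 525.1, 577 and 488.8 CPM. UK14,304 was the higher in 4 of 4 mice with both libraries, and only mouse 5, which has no vehicle library, fell within the vehicle range. The log2 fold change was 0.11 (SE 0.0443, adjusted p 0.399), and 0.12 with the mouse block (SE 0.0407, 95% interval 0.03 to 0.21, unadjusted p 0.00871, adjusted p 0.186). Fitted on these 2 groups alone with the block it was 0.15 (SE 0.0362, adjusted p 0.0416), where 3.55% of all genes passed. With norepinephrine the log2 fold change of Klf5 was 0.01 with the block (95% interval -0.07 to 0.1).

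For Klf4, both estimates lay below 0. The HCl libraries of mice 1 to 4 had 44.19, 58.91, 40.43 and 42.72 CPM, and the norepinephrine libraries of mice 1 to 5 had 39.96, 47.93, 34.43, 44.88 and 36.2 CPM. The DMSO libraries had 40.65, 60.97, 43 and 41.09 CPM, and those with UK14,304 41.8, 49.84, 30.61, 39.38 and 38.68 CPM. Each agonist had the lower value in 3 of 4 mice, the exceptions being mouse 4 for norepinephrine and mouse 1 for UK14,304. With the block the log2 fold change was -0.16 for norepinephrine (95% interval -0.32 to -0.01, adjusted p 0.584) and -0.19 for UK14,304 (-0.34 to -0.03, adjusted p 0.243). Unadjusted p-values under 0.05 were then held by 1 member with norepinephrine, Klf4 (background 8.4%), and by 2 with UK14,304, Klf4 and Klf5 (background 14.8%).

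Mouse 4 weighed on these estimates. In mouse 4 the log2 ratio of norepinephrine to HCl was 0.13 for Cdx1, -0.1 for Hnf4g and 0.07 for Klf4, while Cdx1 and Klf4 were lower in mice 1 to 3 and Hnf4g was higher in mice 2 and 3. Without mouse 4, and with the block, 3 members passed for norepinephrine beside 15.1% of all genes: Klf4 at -0.24 (adjusted p 0.017), Cdx1 at -0.1 (0.0486) and Hnf4g at 0.1 (0.0476). For UK14,304 without mouse 4, Klf4 alone passed, at -0.23 (adjusted p 0.0459), beside 3.83% of genes. Both libraries of mouse 4 in the norepinephrine comparison are in the set with more ribosomal RNA. Those of mouse 4 in the UK14,304 comparison are in the set with less (0.351% with DMSO and 0.34% with UK14,304). Whether this share bears on the shifts was not tested.

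**Figure D4:**
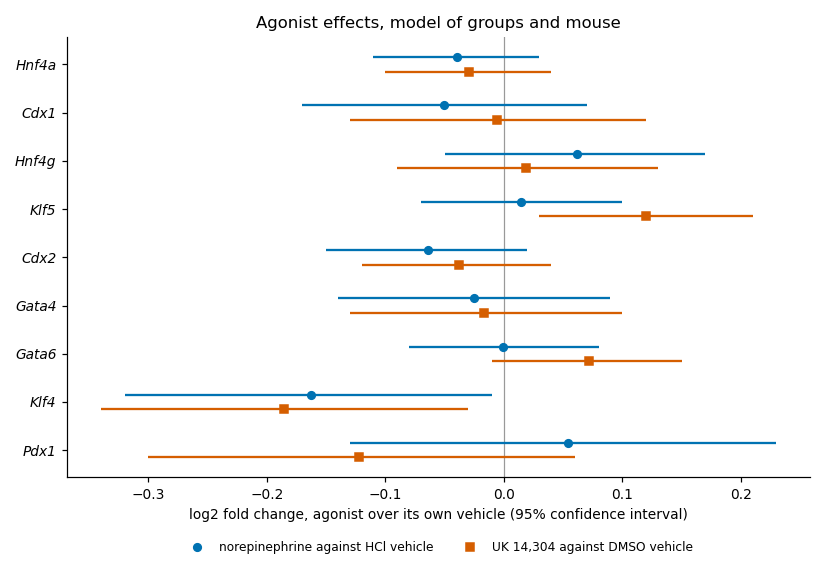
Log2 fold change of each transcription factor with norepinephrine (circles) and UK14,304 (squares) against its own vehicle, with 95% confidence intervals, from the model of 4 groups and mouse. Most intervals cross 0, those of Klf4 with both agonists and of Klf5 with UK14,304 do not, and none of these passes after adjustment over 15247 genes.

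The remaining members had small estimates in the blocked model. Hnf4a lay between 1486 and 1519 CPM in HCl, 1435 and 1548 in norepinephrine, 1446 and 1525 in DMSO and 1441 and 1508 in UK14,304. Cdx2 lay between 189.7 and 210.7 CPM in HCl, 181.2 and 210.7 in norepinephrine, 195 and 211 in DMSO and 186.5 and 211.9 in UK14,304. Hnf4g lay between 235.2 and 293.4 CPM in HCl, 255.9 and 293.7 in norepinephrine, 245.4 and 279.8 in DMSO and 240.5 and 307.6 in UK14,304. In each of these 3 genes the agonist range overlapped the vehicle range. For Hnf4a the log2 fold change was -0.04 with norepinephrine (95% interval -0.11 to 0.03) and -0.03 with UK14,304 (-0.1 to 0.04). For Cdx2 it was -0.06 (-0.15 to 0.02) and -0.04 (-0.12 to 0.04), and for Cdx1 -0.05 (-0.17 to 0.07) and -0.01 (-0.13 to 0.12). Hnf4g gave 0.06 (-0.05 to 0.17) and 0.02 (-0.09 to 0.13), and Gata4 -0.02 (-0.14 to 0.09) and -0.02 (-0.13 to 0.1). The signs of these 5 genes turned with both agonists once the GC correction was added. Gata6 gave 0 (-0.08 to 0.08) with norepinephrine and 0.07 (-0.01 to 0.15) with UK14,304, where it was higher in 4 of 4 mice. Pdx1 gave 0.05 (-0.13 to 0.23) and -0.12 (-0.3 to 0.06). Without the mouse in the model its intervals ran from -2.18 to 2 and from -2.27 to 1.87, with the spread between mice left in the error.

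The effects of both agonists were set against each other, each relative to its own vehicle. For this difference 0 of 9 members passed, beside 0% of genes, without or with the block, and none had an unadjusted p under 0.05, beside 1.51% of genes without the block and 2.66% with it. With the block it ran from -0.18 for Pdx1 (95% interval -0.42 to 0.07, UK14,304 minus norepinephrine), the same sign in 4 of 4 mice, to 0.11 for Klf5 (-0.01 to 0.22), higher in 4 of 4 mice. The HCl vehicle minus the DMSO vehicle, with the block, ran from -0.07 (log2) for Pdx1 to 0.03 for Gata6, and 0 of 9 members passed there beside 0% of genes, with none at an unadjusted p under 0.05 beside 1.27% of genes without the block and 1.82% with it. DESeq2 passed 0 of 9 members in each of these 4 comparisons, without and with the block.

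Of the listed genes outside the 9, 3 passed in the treatment comparisons, all with UK14,304 and the mouse block. Klf10, a zinc finger relative of Klf4 and Klf5 induced by TGF-β, was at 65.44, 62.22, 63.4 and 66.85 CPM in DMSO and at 72.55, 72.16, 71.29, 83.35 and 70.58 CPM in UK14,304. The groups did not overlap, and its log2 fold change was 0.21 (adjusted p 0.0263). Slc40a1 was at 83.42, 264.1, 20.71 and 105.9 CPM in DMSO for mice 1 to 4 and at 57.7, 206.3, 14, 81.34 and 44.61 CPM in UK14,304 for mice 1 to 5, lower in each of the 4 shared mice by a fitted log2 fold change of -0.46 (adjusted p 0.000564). Apoc3, an inhibitor of lipoprotein lipase, fell by 0.48 on the log2 scale (adjusted p 0.0288), from 148.5, 171.2, 97.38 and 137.8 CPM to 126, 111.3, 63.69, 96.97 and 101.5. Over all genes 0.177% were higher and 1.04% lower in that fit. With UK14,304 and the block, 0 of 18 network factors passed, 1 of 13 family relatives was higher, 1 of 17 enterocyte targets was lower and 1 of 6 proximal genes was lower, while the distal, colon and stomach lists had none. No gene of these lists passed for norepinephrine with or without the block.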

How the data were processed

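RNA from 18 organoid cultures was sequenced as single-end reads. The authors aligned reads with STAR 2.7.3 to GRCm38 and deposited raw counts per gene from featureCounts (2.0.1 in the file header, where the labels give Subread 1.6.4; Ensembl 102). The header's command counts exons per gene and sets no strand option, so reads were counted on either strand.

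Symbols came from the Ensembl annotation. Counts were filtered with filterByExpr, scaled by TMM and tested with edgeR 4.0.16 (R 4.3.3), by quasi-likelihood F tests with Benjamini-Hochberg adjustment over 15247 genes. Treatment comparisons used a model of the 4 groups over all samples, and a second model added the mouse. The test between mice took the 4 mouse terms that this model can estimate jointly. Standard errors and intervals were computed from the F statistic. For Pdx1 with norepinephrine in the second model, edgeR reports a p of 0.86, above the 0.536 of that statistic. p-values measure only the spread between these samples. CPM and RPKM use library totals over the tested genes, adjusted by TMM, and log2 values for likeness a prior count of 2. Near copies were sought with blastn 2.17.0. Scripts were tested on simulated data.

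Deviations of samples with the same mouse number from their group means had a mean correlation of 0.277 (25 pairs, lowest -0.212), against -0.0716 for different mice (96 pairs). No library was a duplicate of another in its own group (chi-square per degree of freedom 7.22 to 53.8 over 32 pairs within groups). The 9 genes and the lists were chosen with earlier results of these data known. Named from each list were the 3 most abundant genes per length, those passing in a treatment comparison and the 3 with the smallest adjusted p between mice, and for each of the 9 the 3 genes with the highest correlation. Alternatives were DESeq2 1.42.0, its size factors, no filter, a lowess correction for GC content, the ribosomal RNA split, a fit on 2 groups and leaving out each library. A gene of the colon list is not reported here.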

Additional observations from a re-analysis of the deposited data

Results flagged for a closer look

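Of 36 sets of values (each of the 9 genes in each of 4 groups), 3 held a library far from the rest of its group. Chance alone flags about 1 in 20 independent sets without mouse differences, while these sets share mice that differ. Hnf4a with norepinephrine stood at 1548 CPM in mouse 4 and between 1435 and 1444 in the other mice. Gata6 with norepinephrine stood at 131.2 CPM in mouse 3 and between 143.7 and 146.7 in the other mice. Klf4 with DMSO stood at 60.97 CPM in mouse 2 and between 40.65 and 43 in the other mice.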

How the results depend on the processing

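Pdx1 passed between mice in every alternative run. The number of the 9 genes that differed between mice ran from 2 to 7 when 1 mouse was left out and was 1 over the agonist libraries alone, where Klf4 (adjusted p 0.132), Gata4 (0.83) and Gata6 (0.938) did not pass. The calls over all genes ran from 545 to 4459 when 1 mouse was left out, and 1.24% of genes passed over the agonist libraries alone. Over the vehicle libraries alone Cdx1 (0.00367) and Hnf4g (0.00126) passed; both splits were chosen after seeing the data. Without a filter on low counts Cdx1 (0.0118) and Hnf4g (0.00141) passed as well. Both of these runs are among the 7 in which the calls over all genes ranged from 180 to 3858.

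For the agonists, the replicate block moved Pdx1 with norepinephrine from -0.09 to 0.05 (log2) and raised the calls over all genes from 0 to 16 with norepinephrine and from 6 to 186 with UK14,304, and changed no call on the 9. On agonist and own vehicle alone with the replicate block, 1 member passed with UK14,304, beside 3.55% of genes. Leaving out libraries, the members passing ran from 0 to 3 for norepinephrine and from 0 to 1 for UK14,304. The calls over all genes in those runs ran from 0 to 2300 and from 2 to 585. The cause of these shifts was not tested.

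Signs also turned, none with an adjusted p under 0.111. With the replicate block and the GC trend removed, norepinephrine gave 0.06 for Cdx1, 0.02 for Cdx2, 0.02 for Hnf4a, -0.02 for Hnf4g, 0.04 for Gata4, 0.08 for Gata6, 0.09 for Pdx1 and -0.01 for Klf5, and UK14,304 gave 0.08 for Cdx1, 0.03 for Cdx2, 0.02 for Hnf4a, -0.07 for Hnf4g and 0.05 for Gata4. With the block and the ribosomal RNA split, Pdx1 was 0.05 with norepinephrine, and Cdx1 0.03, Hnf4g -0.02 and Gata4 0.01 with UK14,304. For norepinephrine, Gata6 was 0 with DESeq2 size factors, with DESeq2 with or without the block and on its own vehicle alone, and 0.01 with no filter. Pdx1 was 0.07 with blocked DESeq2 and 0.08 in the blocked fit on its own vehicle, where Klf5 was 0. Leaving out single libraries or mice, norepinephrine ranged from -0.04 to 0.03 for Gata6, 0 to 0.05 for Klf5, -0.13 to 0.01 for Gata4 and -0.6 to 0.74 for Pdx1 (0.02 to 0.18 with the block), and UK14,304 from -0.13 to 0.04 for Gata4, -0.78 to 0.6 for Pdx1, -0.05 to 0.04 for Cdx1 and -0.02 to 0.07 for Hnf4g.

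Over all genes, UK14,304 called 22 without a filter, 44 with DESeq2, 257 with blocked DESeq2, 624 with the block and the GC trend removed, 78 with the block and the ribosomal RNA split, and 1 on 2 groups (525 with the block). For norepinephrine these were 79 with blocked DESeq2, 36 with the block and the GC trend removed and 15 on 2 groups with the block. Depth limits Pdx1 in mouse 3, where 4 libraries hold 17 to 30 counts.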
